A study of Mus musculus with 16 samples.

Results

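The collagen genes described here are the 44 protein-coding genes of the mouse kidney table whose symbol has the form Col, a type number, the letter a and a chain number, out of 30277 genes in that table. Symbol and biotype chose them, and no measured value did. Of the 44 genes, 11 encode chains of fibrillar collagens, 6 encode the chains of type IV collagen of basement membranes, and 27 encode chains of other types. A gene was tested when its mean over all 16 libraries was at least 1 scaled RPM. This unit is used throughout: the reads implied by the deposited TPM and the genomic length of the gene, per 1000000 reads (RPM) and after median-ratio scaling between libraries. 28 collagen genes passed, 7 fibrillar, 6 of type IV and 15 of other types, and 16 did not. Col6a6 was the 1 gene that passed through the males alone.

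Collagens are trimers of alpha chains wound into a helix, and each chain has its own gene. Fibrillar collagens of types I, III and V are laid down by fibroblasts and related mesenchymal cells, and they build the fibres of the interstitium that thicken in kidney scarring. Type IV collagen forms the sheet-like network of basement membranes, with an alpha1-alpha1-alpha2 trimer found under most epithelia and endothelia and an alpha3-alpha4-alpha5 trimer made by podocytes for the glomerular basement membrane, and loss of the alpha3-alpha4-alpha5 network causes Alport syndrome. The remaining types include the beaded filaments of type VI, the FACIT collagens that sit on fibril surfaces, the multiplexins XV and XVIII of basement membrane zones, and transmembrane collagens.

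Poly(A) RNA was sequenced from perfused, flash-frozen kidneys of congenic C57Bl/6J mice from a line with the Kl mutation of Klotho, the co-receptor for the phosphate hormone FGF23. The groups were 4 male mice homozygous for the mutation (Kl/Kl, called KlKl, 46 to 59 days old), 4 male controls (46 to 48 days), 4 female KlKl mice (47 to 52 days) and 4 female controls (47 to 57 days). The study's title names renal failure and sex as what it compares. Male controls 1 and 2 and all 4 female controls were heterozygous, +/Kl, and male controls 3 and 4 were +/+, so the controls carry the mutation unequally by sex. The homogenate holds all cells of the kidney, in which fewer cells of a type and less RNA per cell cannot be told apart. The labels number the samples of a group as replicates, and the p-values measure the spread between these samples.

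The libraries held 8211988 to 20111966 recovered reads, with 13031914 to 20111966 in the 8 male libraries and 8211988 to 14508569 in the 8 female ones. Kl itself had 38.4 ± 21.2 scaled RPM in male KlKl kidneys and 493 ± 63.5 in male controls, and 7.92 ± 4.65 in female KlKl kidneys and 204 ± 85.2 in female controls (SD, n = 4 each), with no overlap between genotypes in either sex. Female control 3 stood apart: it had the fewest reads, and ribosomal RNA genes took 7.06% of its TPM, the highest share of the 16 libraries, in which the lowest share was 0.484%. All 10 podocyte and all 10 proximal tubule markers listed passed the filter, whereas 1 of 8 adrenal markers did. The library names carry sample numbers that recur in both sexes, and whether male and female kidneys were prepared and sequenced together is not given in the sources used here, so sex and any such difference cannot be told apart.

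Per length of exon, 4 of the 6 type IV genes and Col18a1 were the most abundant collagen transcripts. Over all 16 libraries Col4a1 averaged 22.7 scaled RPM per kb of exon, Col4a4 17.8, Col4a3 17.1 and Col4a2 16. Col18a1, the type XVIII chain whose C-terminal fragment is endostatin, reached 16 on the same scale. Their order changed with the group: in male controls Col4a3 (23.8) stood next to Col4a1 (25.3), and in female KlKl kidneys it was the lowest of the 5 at 11.5. The fibrillar genes followed, led by Col27a1 at 7.99, Col1a2 at 7.61, Col3a1 at 4.93 and Col1a1 at 4.58. Col4a5 had 6.51 and its head-to-head neighbour Col4a6, whose chain is absent from the glomerular network, 0.406. The order depends on the exon length, the union of all annotated exons, which was 12.43 kb for Col1a2 and 6.563 kb for Col1a1. Undivided, the same 5 genes led over all 16 libraries, with Col4a2 at 106.2 and Col27a1 next at 104. Col1a2 in female KlKl and control kidneys (120.1 and 132) then lay above Col4a2 (95.1 and 84.8) and Col18a1 (112.9 and 104.6). In males (69.1 and 56.8) it lay under both.

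**Figure D1:**
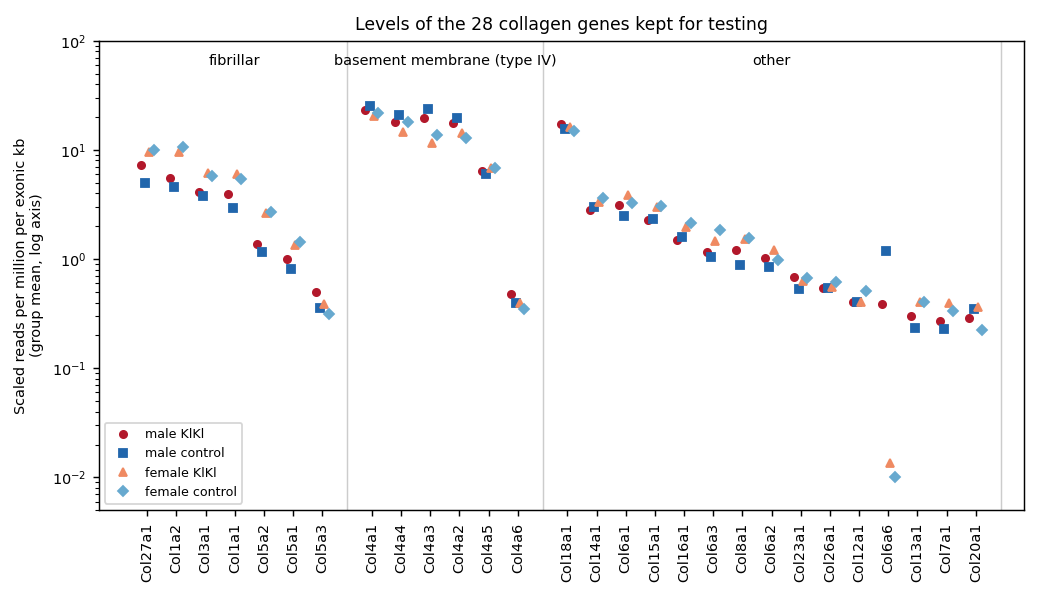
Mean level of each of the 28 tested collagen genes in scaled RPM per kb of exon (log axis), one symbol for each of the 4 groups of 4 libraries, with genes ordered within the fibrillar, type IV and other classes. Col4a1 to Col4a4 and Col18a1 lie highest, and Col6a6 is the gene whose male and female symbols lie farthest apart.

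The 16 genes under the filter included the cartilage collagens. Col2a1, the main cartilage fibril chain, had at most 2 reads in any library and was at 0 in 9 of the 16, where 0 reads allow up to 3. Col9a1, Col9a2, Col10a1 and Col22a1 had at most 3 reads in any library, and Col28a1 at most 4. Col11a1, Col17a1, Col6a5, Col9a3, Col8a2, Col25a1, Col24a1, Col6a4 and Col11a2 had at most between 6 and 23 reads. Col19a1 had 9, 2, 5 and 9 reads in male KlKl kidneys, 24, 10, 65 and 17 in male controls, 0, 2, 3 and 4 in female KlKl kidneys and 2, 2, 5 and 4 in female controls. In scaled RPM the male controls ran from 0.619 to 3.32 and the female libraries reached 0.682 in female control 3, so the sexes overlapped; the gene was not tested because its mean fell under the filter. For the genes with at most 4 reads no difference between groups was detectable at this depth.

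Summed over the collagen genes, the levels of the 4 groups overlapped, and the shares of the fibrillar and type IV classes differed by sex. The sum was 1218 ± 190.0 scaled RPM in male KlKl kidneys and 1245 ± 63.3 in male controls, and 1202 ± 71.1 in female KlKl kidneys and 1267 ± 132 in female controls. Fibrillar chains made up 20.9 ± 3.32% of it in male KlKl kidneys and 16.1 ± 1.36% in male controls, and 32.1 ± 1.39% in female KlKl kidneys and 31.4 ± 4.05% in female controls. Type IV chains made up 59.5 ± 4.80%, 65.8 ± 2.13%, 47.0 ± 1.33% and 49.2 ± 2.28% in the same order. The other types made up 19.65 ± 2.5%, 18.23 ± 1.25%, 20.88 ± 0.492% and 19.42 ± 2.05%, and their shares overlapped between the sexes. The ratio of the fibrillar to the type IV sum needs no scaling between libraries: it ran 0.248 to 0.436 in male KlKl and 0.216 to 0.284 in male control kidneys, and 0.631 to 0.750 in female KlKl and 0.526 to 0.764 in female control kidneys. Every male library thus had a lower ratio than every female library, and the KlKl and control ranges overlapped within each sex. These sums and ratios carry no test.

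**Figure D2:**
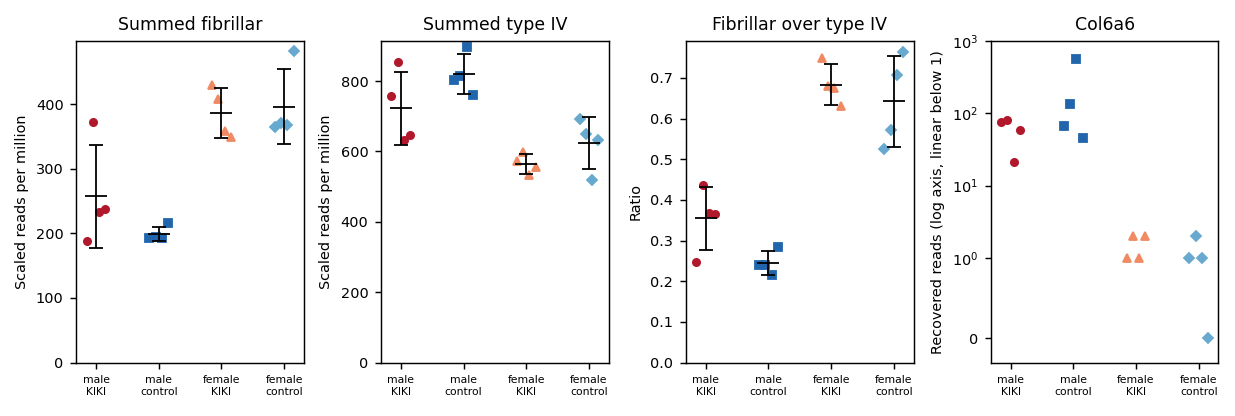
Summed level of the fibrillar and of the type IV genes (scaled RPM), their ratio, and the recovered reads of Col6a6 (log axis, linear from 0 to 1), one point per library, with mean and SD of 4 libraries in the first 3 panels. The ratio is 0.436 or less in all 8 male kidneys and 0.526 or more in all 8 female kidneys.

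In KlKl kidneys against controls, no collagen gene passed limma's test with Benjamini-Hochberg adjustment at 0.05, in males, in females or over both sexes. The background was low too: 0.0318% of the 15723 tested genes were called in males (0.0191% higher and 0.0127% lower in KlKl kidneys), 0.0191% in females (0.00636% higher and 0.0127% lower) and 0.0382% over both sexes (0.0191% in each direction). At an unadjusted p under 0.05, 1 of the 28 collagen genes stood out in each of these comparisons, against 5.53%, 3.36% and 6.19% of all tested genes, and limma voom on the recovered reads called none of the 28 in any of them. The test of whether the KlKl effect differed by sex called 0.0% of all genes and no collagen gene, with none of the 28 and 2.56% of all genes at an unadjusted p under 0.05, and limma voom again called none. In males no tested collagen gene had KlKl and control values that did not overlap, against 1.97% of all genes for higher and 2.7% for lower values. In females none was without overlap in the higher direction (0.897% of all genes) and Col4a4 was in the lower (1.18%).

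The fibrillar genes, which encode the interstitial fibres, had positive differences in male KlKl kidneys, none past the test. All 7 tested had one in males, with a median of 0.27 on the log2 scale against -0.02 over all genes, and 4 of 7 had one in females, with a median of 0.02 against 0.01. The fibrillar median stayed positive under the 4 other scalings in both sexes, with log2(TPM + 1) over Col1a1, Col1a2 and Col3a1 alone. Most of these scalings, however, raised the median of all genes too. In females that median was 0.107 with scaling to a common total, 0.105 with log2(TPM + 1) and 0.123 with log2(TPM + 0.1). In males it was 0.118, 0.18 and 0.214. The female fibrillar median of 0.02 was smaller than these shifts, so its sign under them cannot be told from the scaling. With 1 library left out at a time it ran from -0.043 to 0.104. Col1a1, the alpha1 chain of type I collagen, had 18.6, 36, 27.1 and 22.5 scaled RPM in male KlKl kidneys, against 14.2, 23.3, 15.8 and 23.9 in male controls. KlKl replicate 2 was the highest and the groups overlapped (log2 difference 0.42, SE 0.19, adjusted p = 0.894; unadjusted p = 0.042). In females Col1a1 had 36.5, 39.4, 39.4 and 41.7 in KlKl kidneys and 34.2, 35.1, 31.2 and 42.5 in controls, which overlapped as well (log2 difference 0.14, SE 0.19, adjusted p = 0.971).

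The partner chain Col1a2 allowed a fold of 0.933 to 1.53 in males and 0.721 to 1.18 in females at 95% confidence, and Col3a1, the type III chain co-assembled with type I, 0.721 to 1.51 and 0.741 to 1.55. The largest fibrillar difference in males was that of Col27a1, a type XXVII chain known from cartilage: 64.3, 149, 88.9 and 80.6 in KlKl kidneys and 82, 43.4, 74.5 and 57.7 in controls (log2 difference 0.54, SE 0.27, adjusted p = 0.923). Its high value came from KlKl replicate 2, which also had the highest Col1a1, Col1a2 and Col3a1 of the 8 male libraries. Without that library the male fibrillar median was 0.19, and without male KlKl 1 it was 0.45. The fibroblast markers had a median of 0.16 in males (8 of 10 positive) and -0.02 in females, and the pericyte and smooth muscle markers 0.12 (9 of 10 positive) and 0.12 (10 of 10), none of them called; their part in the fibrillar values was not tested. Col5a3, a minor type V chain, differed by 0.43 in males and 0.38 in females, with adjusted p = 0.998 and 0.97.

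Among the type IV genes, Col4a4, a chain of the podocyte network, had the lowest p of any collagen gene for the KlKl effect. It had 158, 169, 139 and 149 scaled RPM in female KlKl kidneys, against 191, 197, 194 and 188 in female controls. All 4 female KlKl values lay under all 4 control values, which makes Col4a4 the 1 such gene among the 28. In males it had 226, 186, 178 and 173 in KlKl kidneys and 219, 204, 255 and 204 in controls, where the groups overlapped. The log2 difference was -0.33 in females (SE 0.11), -0.21 in males (SE 0.11) and -0.27 over both sexes (SE 0.08, unadjusted p = 0.00255, adjusted p = 0.462), and none of the 3 passed. The summed level of the 10 podocyte markers was 493 to 620 in male KlKl kidneys and 510 to 569 in male controls, and 507 to 542 in female KlKl kidneys and 448 to 639.8 in female controls, and its part in the Col4a4 values was not tested.

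Col4a3, which shares a trimer with Col4a4, differed by -0.31 in males and -0.17 in females (adjusted p = 0.998 and 0.97). The broadly used chains were held to narrow intervals: the fold of Col4a1 was 0.761 to 1.09 in males and 0.785 to 1.13 in females, and that of Col4a5 0.85 to 1.27 and 0.822 to 1.23. Col4a2 differed by -0.16 in males and 0.26 in females, and Col4a6 by 0.24 and 0.20, none past the test. The type IV median was -0.15 in males on median-ratio scaling and 0.10 with the deposited TPM and a pseudocount of 0.1, under which the median of all genes was 0.21, so its sign depends on the scaling.

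None of the other types passed the test. Their median difference was 0.06 in males and 0.01 in females. The type VI chains that form the beaded filament, Col6a1, Col6a2 and Col6a3, differed by 0.26, 0.21 and 0.06 in males and by 0.60, 0.44 and -0.28 in females, where female control 3 was the lowest library for Col6a1 and Col6a2 and the highest for Col6a3. Col18a1 allowed a fold of 0.875 to 1.4 in males and 0.879 to 1.4 in females, and Col15a1, the other multiplexin, 0.66 to 1.43 and 0.668 to 1.45. Col8a1, a short-chain collagen of vessel walls, differed by 0.35 in males, and the FACIT gene Col20a1 by 0.49 in females. Among the widest interaction estimates by class were -0.76 for Col20a1, 0.52 for Col27a1 and -0.42 for Col4a2 (males minus females), each with adjusted p = 1. For Col6a6, with at most 2 reads in any female library, no interaction value is given.

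**Figure D3:**
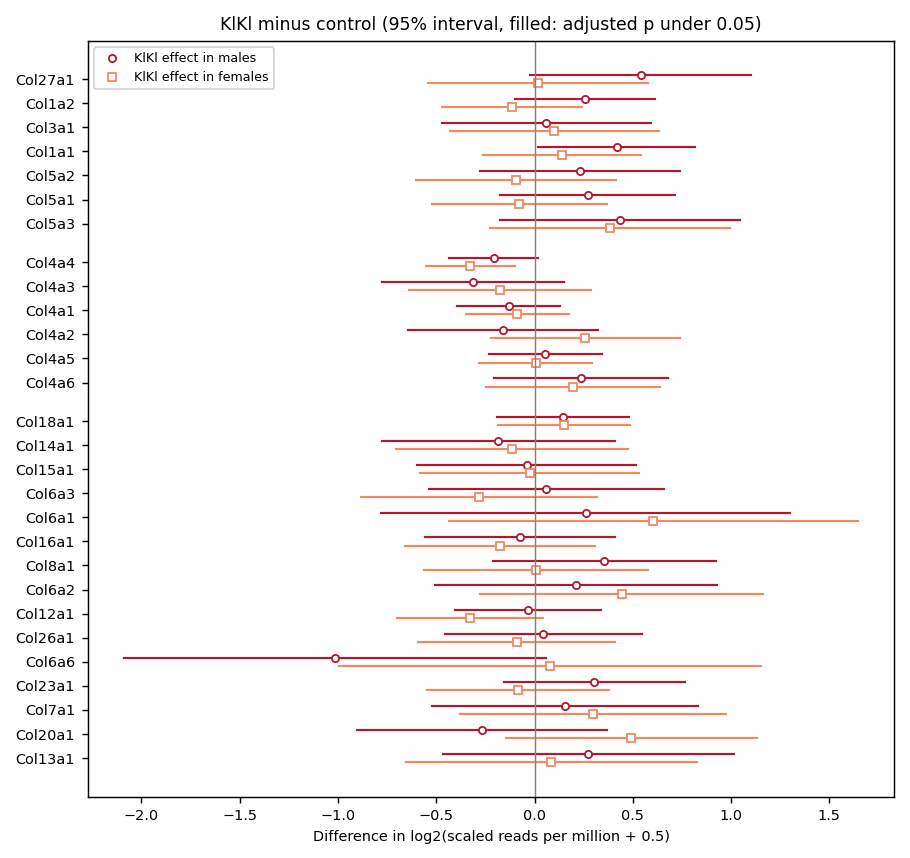
KlKl minus control difference of the 28 tested collagen genes in log2(scaled RPM + 0.5), in males and in females, with 95% intervals from limma. No point is filled because none passed at an adjusted p under 0.05; the 7 fibrillar genes all lie right of 0 in males.

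The collagen genes differed more between males and females. In KlKl kidneys 6 of the 28 tested collagen genes passed the test, 3 higher and 3 lower in males (21.4% of them, against 29.0% of all tested genes, of which 15.1% were higher and 13.9% lower in males). In controls 10 passed, 3 higher and 7 lower in males (35.7%, against 42.2% of all tested genes, 22.4% higher and 19.8% lower). The shares of collagen genes called were thus under those of all genes. Col6a6 stands in each of these higher counts and could be called in that direction alone; among the 27 genes that passed the filter in both sexes, 2 were higher and 3 lower in KlKl kidneys and 2 higher and 7 lower in controls. At an unadjusted p under 0.05 they were 7 and 11 of 28, against 41.5% and 50.8% of all tested genes. The sexes did not overlap for 3 collagen genes, Col6a6 included, that were higher in males (17.1% of all genes) and 2 that were lower (15.6%) in KlKl kidneys, and for 5, again with Col6a6, that were higher (21.1%) and 6 that were lower (17%) in controls. Of the 7 fibrillar genes 3 were lower in males in KlKl kidneys and 5 in controls, and none was higher. Of the 6 type IV genes 2 were higher in males in KlKl kidneys and 2 in controls, and none was lower. Col1a1, Col1a2, Col5a2 and Col4a3 were called in both comparisons, each with the same sign. The median difference of the fibrillar genes was -0.62 in KlKl kidneys and -0.90 in controls, and that of the type IV genes 0.25 and 0.21. These signs held under all 4 other scalings, of which log2(TPM + 1) covered only Col1a1, Col1a2, Col3a1, Col4a1, Col4a3 and Col4a4. The median difference of the other types was -0.33 and -0.31. It was 0.06 and 0.01 with the deposited TPM and a pseudocount of 0.1, which moved the median of all genes by 0.34 and 0.24. The comparisons in KlKl and in control kidneys use separate animals.

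Col1a2, the alpha2 chain of type I collagen, had the smallest adjusted p of the fibrillar genes. It had 49.5, 92.8, 64.8 and 69.4 scaled RPM in male KlKl kidneys, against 122, 128, 114 and 116 in female KlKl kidneys. In controls it had 50.3, 63.4, 50.1 and 63.3 in males, against 108, 112, 163 and 144 in females. All 8 male values lay under all 8 female values, a separation that 7.50% of all tested genes showed in that direction and Col1a2 alone among the 28 collagen genes. The fold of males over females was 0.564 (95% interval 0.441 to 0.722) in KlKl kidneys and 0.436 (0.34 to 0.558) in controls, with adjusted p = 0.00222 and 6.58e-05. The interaction between sex and genotype was 0.37 on the log2 scale with adjusted p = 1. With log2(TPM + 1), which moved the median of all genes by 0.33 toward males, Col1a2 differed by -0.24 in KlKl kidneys and did not pass (adjusted p = 0.0717). With log2(TPM + 0.1) it differed by -0.34 (adjusted p = 0.0895). The mean TPM of Col1a2 was 2.02, beside pseudocounts of 1 and 0.1. The parts of pseudocount and scaling in the lost calls were not tested.

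Its partner Col1a1 had 18.6, 36, 27.1 and 22.5 in male and 36.5, 39.4, 39.4 and 41.7 in female KlKl kidneys, and 14.2, 23.3, 15.8 and 23.9 in male and 34.2, 35.1, 31.2 and 42.5 in female controls. The male values lay under the female ones within each genotype (log2 difference -0.62, SE 0.19, adjusted p = 0.0218 in KlKl kidneys; log2 difference -0.90, SE 0.19, adjusted p = 0.00142 in controls). The KlKl call was lost when male KlKl 1 or 4 or female KlKl 2 or 4 was left out, and with log2(TPM + 1) both were (adjusted p = 0.557 in KlKl kidneys and 0.0561 in controls). Col1a1 ran at 0.377 ± 0.0388 of Col1a2 in male KlKl and 0.328 ± 0.0290 in female KlKl kidneys, and at 0.335 ± 0.0447 in male and 0.279 ± 0.0593 in female controls, reads per gene without correction for length.

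Of the type V chains, which nucleate type I fibrils, Col5a2 passed in both comparisons. Col5a2 had 10.6, 14.9, 10.2 and 17.3 in male and 38, 28.6, 18.8 and 15.5 in female KlKl kidneys, which overlapped (log2 difference -0.85, SE 0.24, adjusted p = 0.0147). In controls it had 12.2, 9.97, 12.5 and 9.43 in males and 32.9, 21.8, 26.3 and 22.1 in females, which did not (log2 difference -1.18, SE 0.24, adjusted p = 0.00111). The KlKl call was lost without female KlKl 1 or 2, which with female control 1 held the 3 highest values of the 16 libraries. It was also lost with log2(TPM + 0.1) (-0.25, adjusted p = 0.188) and in the libraries whose names begin CFdk alone (-0.35, adjusted p = 0.596). Col5a1 passed in controls (log2 difference -0.79, SE 0.21, adjusted p = 0.00714) and not in KlKl kidneys (-0.44, adjusted p = 0.126), with an interaction at adjusted p = 1. The control call was lost with log2(TPM + 0.1) (adjusted p = 0.219), where the mean TPM of Col5a1, 0.0513, was under the pseudocount. Col5a3 did not pass in either (0.32 and 0.26).

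Col3a1 lay on the other side of the threshold by a small margin. Its levels were 40 ± 17.6 in male and 60 ± 9.57 in female KlKl kidneys, and 37.2 ± 10.7 in male and 56.4 ± 12.3 in female controls (SD, n = 4 each). The differences of -0.66 and -0.62 had adjusted p = 0.0594 and 0.0584. Both passed without female control 3 (adjusted p = 0.0449 and 0.0363) and with the name series as a covariate (0.0444 and 0.0436). Of 36 other settings, 5 called Col3a1 in KlKl kidneys and 9 in controls. Across them its difference ran from -0.922 to -0.091 in KlKl kidneys (adjusted p from 0.00864 to 0.629). In controls it ran from -0.907 to -0.126 (adjusted p from 0.02 to 0.496). Col27a1 was lower in male controls, with 82, 43.4, 74.5 and 57.7 in males and 99.3, 127, 91 and 204 in females, groups that did not overlap (log2 difference -0.98, SE 0.27, adjusted p = 0.0076). The call was lost with log2(TPM + 0.1) (-0.54, adjusted p = 0.0908) and in each of the 2 series of library names, CFK and CFdk, alone (adjusted p = 0.0694 and 0.0602). In KlKl kidneys it had 64.3, 149, 88.9 and 80.6 in males and 142, 134, 116 and 111 in females, which overlapped (log2 difference -0.46, SE 0.27, adjusted p = 0.204), and the interaction did not pass (adjusted p = 1).

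**Figure D4:**
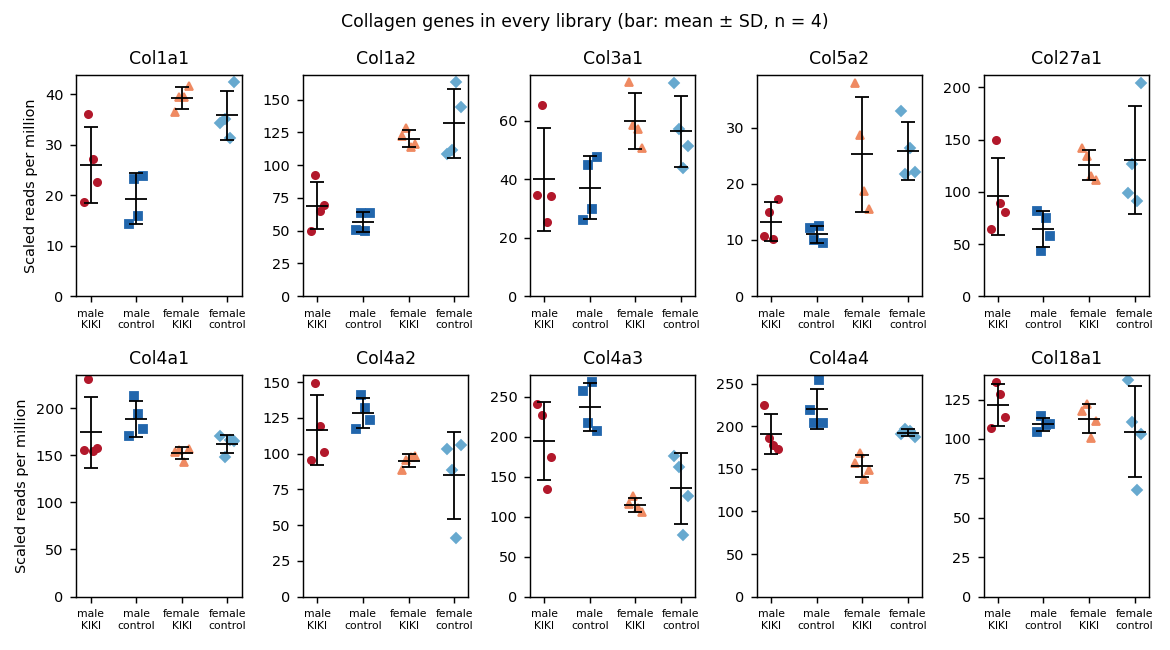
Level of 10 collagen genes in every library (scaled RPM, linear axes from 0), with mean and SD of the 4 libraries of each group. Col1a2 separates the 8 male from the 8 female kidneys, and female control 3 is the low point of Col4a2, Col4a3 and Col18a1.

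The promoters of Col1a2 and Col6a6 are shown because these 2 genes separated every male from every female kidney, so they were chosen after their values were seen. The windows run from 250 bases before to 50 bases after the RefSeq start of the gene (build GRCm38.p6, another build than the mm39 of the table), 5′ to 3′ on the gene's strand, and capitals mark the TATA box motif TATAAA, the motif CCAAT or the GC box motif GGGCGG on either strand. The Col1a2 window lies at chr6:4505368-4505667, + strand, and the Col6a6 window at chr9:105828036-105828335, - strand.
Col1a2: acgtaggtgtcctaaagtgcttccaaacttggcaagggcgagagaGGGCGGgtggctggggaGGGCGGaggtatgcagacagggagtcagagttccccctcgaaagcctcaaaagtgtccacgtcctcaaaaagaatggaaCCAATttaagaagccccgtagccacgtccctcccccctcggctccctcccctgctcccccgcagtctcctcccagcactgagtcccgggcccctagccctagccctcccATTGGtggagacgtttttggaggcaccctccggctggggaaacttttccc
Col6a6: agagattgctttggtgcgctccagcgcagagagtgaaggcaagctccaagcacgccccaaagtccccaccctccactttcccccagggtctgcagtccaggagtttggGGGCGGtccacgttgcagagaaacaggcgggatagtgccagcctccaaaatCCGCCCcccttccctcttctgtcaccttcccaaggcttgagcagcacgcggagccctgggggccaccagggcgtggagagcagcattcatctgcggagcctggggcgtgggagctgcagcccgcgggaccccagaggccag
Col1a2 holds CCAAT at 2 and GGGCGG at 2 places, and Col6a6 GGGCGG at 2. Of 32851 RefSeq windows of this length 37.4% hold CCAAT, 35.7% GGGCGG and 13.6% TATAAA, and of the 38 windows found for 35 of the 44 collagen genes 34.2%, 60.5% and 13.2% do. The matches describe the letters of these windows.

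Col6a6 encodes a type VI chain of the alpha3-like group. It had 76, 79.9, 21 and 58 recovered reads in male KlKl kidneys, against 1, 2, 1 and 2 in female KlKl kidneys. In controls it had 67, 131.9, 565.9 and 46 in males, against 1, 2, 1 and 0 in females. The males thus had between 21 and 566 reads and the females at most 2, a separation of all 8 males above all 8 females that 9.91% of all tested genes showed and Col6a6 alone among the 28 collagen genes. It entered the test through the male libraries, so a call was possible in that direction alone, and the reads are given as a description with neither p nor fold. Male control 3 held the most reads. Its neighbours on chromosome 9, Col6a5 and Col6a4, had at most 10 and 18 reads.

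Among the type IV genes, Col4a3, of the podocyte network, was higher in males. It had 240.4, 227, 135 and 175 in male and 115, 126, 110.1 and 106 in female KlKl kidneys (log2 difference 0.73, SE 0.22, adjusted p = 0.0202). In controls it had 257, 216, 268 and 208 in males and 176, 163, 76.8 and 126 in females (log2 difference 0.87, SE 0.22, adjusted p = 0.00491). The sexes did not overlap within either genotype, and female control 3 was the lowest of all libraries; without it the control difference was 0.62 with adjusted p = 0.00936. The KlKl call was lost without male KlKl 1 or 2. Col4a4 was higher in males in KlKl kidneys, 191 ± 23.7 against 154 ± 13 (log2 difference 0.31, SE 0.11, adjusted p = 0.0397), a call lost without any of 6 of the 16 libraries, and did not pass in controls, 220.5 ± 23.9 against 192 ± 3.97 (adjusted p = 0.161). In controls it passed with log2(TPM + 1) and log2(TPM + 0.1) (adjusted p = 0.016 and 0.0142), which moved the median of the genes tested by 0.26 and 0.24 toward males.

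The 2 genes lie head to head on chromosome 1, Col4a4 at chr1:82426144-82564571, - strand and Col4a3 at chr1:82564642-82699781, + strand (mm39), with 70 bases between their annotated starts. The reads of Col4a3 were 1.01 ± 0.193 of those of Col4a4 in male KlKl and 0.745 ± 0.0353 in female KlKl kidneys, and 1.07 ± 0.0656 in male and 0.703 ± 0.231 in female controls. Of the 10 podocyte markers none was called between the sexes in KlKl kidneys, and in controls Clic5 was higher (0.56) and Nphs1 lower (-0.53) in males; their part in the Col4a3 difference was not tested. Col4a5, the X-linked partner of the same trimer, differed by -0.12 and -0.17 between the sexes and did not pass.

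Col4a1 and Col4a2, the chains of the widespread network, form another head-to-head pair on chromosome 8, where the annotated genes overlap by 23 bases at their starts. Col4a2 passed in controls, with 117, 141, 132 and 124 in males and 104, 88.5, 40.6 and 106 in females (log2 difference 0.69, SE 0.23, adjusted p = 0.0233), and its difference was 0.37 with adjusted p = 0.0317 without female control 3, whose value was under that of every other library. The call was lost without male control 2 or 3, and with heterozygous controls only (adjusted p = 0.103). In KlKl kidneys Col4a2 had 116 ± 24.4 in males and 95.1 ± 4.41 in females and did not pass (adjusted p = 0.391). Col4a1 had 174 ± 37.6 in male and 153 ± 6.54 in female KlKl kidneys and 189 ± 19 in male and 162 ± 9.76 in female controls, and did not pass in either (adjusted p = 0.311 and 0.17), although the sexes did not overlap in controls. With log2(TPM + 1) it passed in both (adjusted p = 0.00269 and 0.00881). The ratio of Col4a1 to Col4a2 reads was 1.30 to 1.74 in 15 libraries and 4.08 in female control 3.

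The windows of this pair and of Col4a4, the gene with the lowest p for the KlKl effect, are shown with the same marking. The RefSeq windows of Col4a1 (chr8:11312777-11313076, - strand) and Col4a2 (chr8:11312555-11312854, + strand) share 78 bases on opposite strands, and that of Col4a4 lies at chr1:82586800-82587099, - strand (GRCm38.p6).
Col4a1: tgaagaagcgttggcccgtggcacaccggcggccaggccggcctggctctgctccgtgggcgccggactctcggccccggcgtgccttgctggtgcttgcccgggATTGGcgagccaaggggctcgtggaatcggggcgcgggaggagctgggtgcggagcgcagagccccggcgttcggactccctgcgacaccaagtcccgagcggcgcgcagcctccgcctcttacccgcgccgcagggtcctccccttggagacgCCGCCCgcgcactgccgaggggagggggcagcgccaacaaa
Col4a2: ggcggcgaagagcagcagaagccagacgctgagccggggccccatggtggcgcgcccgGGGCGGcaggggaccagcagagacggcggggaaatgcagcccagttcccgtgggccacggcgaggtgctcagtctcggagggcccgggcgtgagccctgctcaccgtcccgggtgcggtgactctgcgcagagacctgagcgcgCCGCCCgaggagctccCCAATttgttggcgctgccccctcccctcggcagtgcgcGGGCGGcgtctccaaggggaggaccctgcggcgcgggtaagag
Col4a4: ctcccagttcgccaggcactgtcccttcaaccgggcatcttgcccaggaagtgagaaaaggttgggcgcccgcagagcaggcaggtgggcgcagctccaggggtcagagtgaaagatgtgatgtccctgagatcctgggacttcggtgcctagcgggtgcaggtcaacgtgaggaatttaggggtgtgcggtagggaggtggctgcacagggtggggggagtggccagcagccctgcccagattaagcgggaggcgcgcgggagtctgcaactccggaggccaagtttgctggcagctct
The Col4a1 window holds CCAAT at 1 and GGGCGG at 1 place, the Col4a2 window CCAAT at 1 and GGGCGG at 3, and the Col4a4 window none of the 3 motifs. The library kit marks strand, and whether the counting used it is not given in the sources used here, so reads in the overlap of Col4a1 and Col4a2 cannot be assigned with certainty.

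Of the 14 other tested genes outside the fibrillar and type IV classes, none was called in KlKl kidneys by limma or limma voom, with none at an unadjusted p under 0.05, and Col6a3 and Col8a1 were called in controls. Col6a3 had 9.01, 12.1, 11.9 and 16.8 in male controls and 21.4, 18.4, 31.8 and 16.5 in female controls, with the highest value in female control 3 (log2 difference -0.79, SE 0.28, adjusted p = 0.0349; adjusted p = 0.101 without that library). That call was also lost without male control 1, 2 or 3 or female control 1 (adjusted p = 0.104, 0.0632, 0.0674 and 0.0544). Col8a1 had 7.38, 5.45, 7.97 and 7.03 in males and 8.56, 9.92, 18.8 and 11.7 in females, again with the highest value in female control 3 (log2 difference -0.72, SE 0.27, adjusted p = 0.0403; adjusted p = 0.124 without it). That call was also lost without any 1 of the 4 male controls or female control 4 (adjusted p = 0.0504 to 0.109) and with limma voom (0.0648). For Col6a1 the difference was -0.06 with adjusted p = 0.932 with all libraries, and -0.76 with adjusted p = 0.0374 without female control 3. Col7a1, the anchoring fibril chain, differed by -0.54 in KlKl kidneys (adjusted p = 0.21). Col18a1 and Col15a1 did not pass, with folds of males over females of 0.853 to 1.36 and 0.525 to 1.14 in controls.

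**Figure D5:**
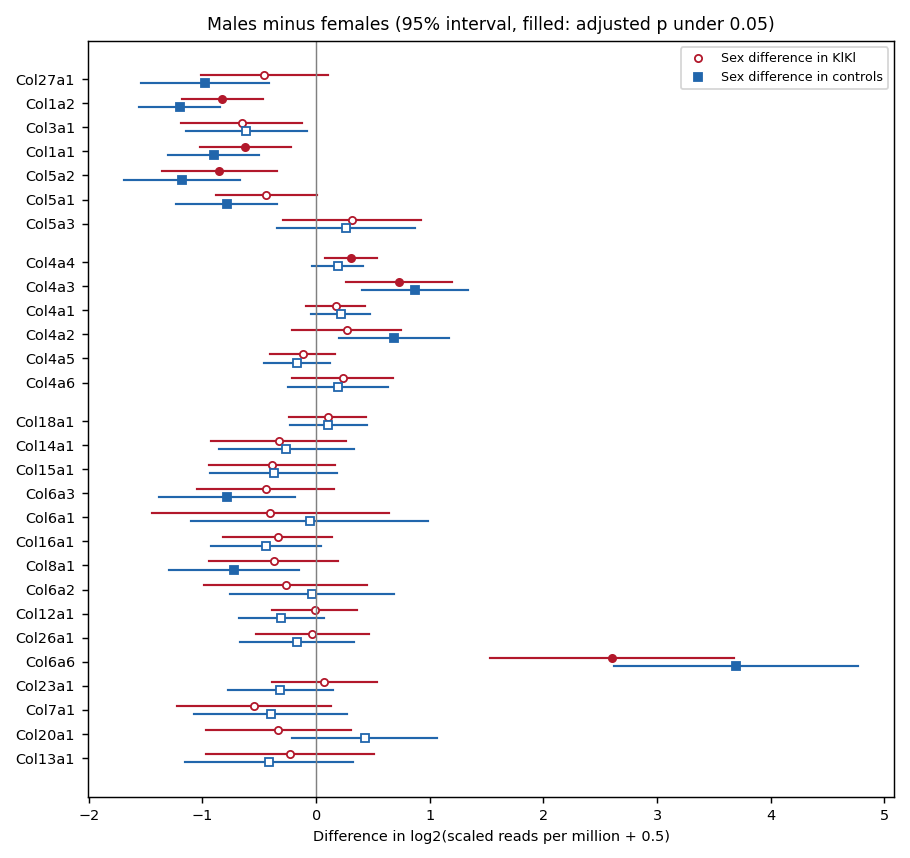
Male minus female difference of the 28 tested collagen genes in log2(scaled RPM + 0.5), in KlKl kidneys and in controls, with 95% limma intervals and filled symbols where the adjusted p is under 0.05. The called fibrillar genes lie left of 0, lower in males, and the called type IV genes right of 0; Col6a6 could lie on the right alone, since it passed the filter through the males.

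The libraries whose names begin CFK (replicates 1 and 2) and CFdk (replicates 3 and 4) were also compared between the sexes apart. Of the 28 tested collagen genes 23 had the same sign in both series in KlKl kidneys and 19 in controls. The signs were counted for collagen genes only, so these counts have no figure over all genes beside them. The median male minus female difference of the fibrillar genes was -0.54 in CFK and -0.42 in CFdk libraries of KlKl kidneys, and -0.91 and -0.89 in those of controls. Col1a2 differed by -0.88 and -0.77 in KlKl kidneys and by -0.96 and -1.44 in controls. Type IV medians were 0.31 and 0.23 in KlKl kidneys and 0.19 and 0.42 in controls. The medians of the other types were -0.22 and -0.10 in KlKl kidneys, and in controls -0.41 in CFK and 0.06 in CFdk libraries, opposite in sign. The CFdk libraries alone called 0 collagen genes in KlKl kidneys, where they called 91 genes in all. In controls they called 6 collagen genes and 3350 genes in all. The CFK libraries called 8 and 11 collagen genes, counts given without those over all genes and so not read as a result about collagens. The adjusted p of Col1a2 from limma in the CFdk libraries of KlKl kidneys, 2 males against 2 females, was 0.117.

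Markers of other cell types differed between the sexes too, where 15.1% of all tested genes were higher and 13.9% lower in KlKl males, and 22.4% and 19.8% in control males. Of 10 fibroblast markers 4 were lower in males in KlKl kidneys and 6 in controls and none was higher, among them Pdgfra (-0.63 and -0.84) and Tcf21 (-0.85 and -1.11). Their summed level was 161 to 225 scaled RPM in male KlKl and 275 to 372 in female KlKl kidneys, and 157 to 222 in male and 290.2 to 355 in female controls. Of 10 pericyte and smooth muscle markers 6 and 5 were lower in males, with sums of 180.0 to 215 in male KlKl and 306 to 334 in female KlKl kidneys, and 169.8 to 197 in male and 207 to 325 in female controls. Of 10 endothelial markers 5 and 5 were called lower and none higher. By sign alone 8 were lower and 2 higher in KlKl males, and 5 were lower and 5 higher in control males. Of 10 proximal tubule markers 3 and 4 were called higher and none lower, with 7 and 9 positive and 3 and 1 negative by sign. The part of these cell types in the fibrillar differences was not tested.

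Of 10 macrophage markers 2 were lower in males in each comparison, C1qa and Mrc1. Of 8 adipocyte markers Fabp4 was lower in KlKl males; Pck1, higher in males in both comparisons, is also a gluconeogenic gene of the proximal tubule, with group means of 795 to 2333 scaled RPM, and Adipoq had group means of 1.09 to 1.60. Of 8 urothelial markers Upk3b was higher in KlKl males and Upk3a lower in control males. Of 10 cartilage and bone markers 2 passed the filter and Sox9 was lower in control males, while no marker of blood (6 listed) or adrenal gland (8 listed) was called. For the KlKl effect no gene of any of these marker lists was called; the macrophage list had medians of 0.23 in males and 0.24 in females and the proximal tubule list -0.31 in males and -0.01 in females. The blood list had a median of 1.72 in males and -0.25 in females, with summed levels of 120.1 to 559 in male KlKl and 52.1 to 195 in male control kidneys, and 58.8 to 126 in female KlKl and 41.4 to 259.9 in female control kidneys.

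Partner genes of the interstitial matrix were called in the direction of the fibrillar collagens. Of 19 listed, 8 were lower in males in KlKl kidneys and 9 in controls (42.1% and 47.4%, against 13.9% and 19.8% of all tested genes), and none was higher. Dcn, the proteoglycan decorin on type I fibrils, differed by -0.97 and -0.98 (adjusted p = 0.00435 and 0.00224), Tnc, tenascin C, by -0.95 and -1.11, and Postn, periostin, by -0.91 and -0.92. Dcn and Lum also stand on the fibroblast list. Of 16 basement membrane partners 2 were higher in males in KlKl kidneys and 3 in controls (12.5% and 18.8%, under the 15.1% and 22.4% of all tested genes), and Npnt was lower in controls (-0.64). Lama3, a laminin alpha chain of epithelia, differed by 1.43 and 1.49, and Lamc1, the common gamma chain, by 0.40 and 0.46.

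Of 31 tested genes of collagen synthesis, 3 were higher and 5 lower in males in KlKl kidneys (9.68% and 16.1%, against 15.1% and 13.9% of all tested genes). In controls 4 were higher and 9 lower (12.9% and 29.0%, against 22.4% and 19.8%). Higher in males were Mia2, a cargo receptor of endoplasmic reticulum exit sites (1.13 and 1.26), Crtap of the prolyl 3-hydroxylase complex (0.51 and 1.07) and P4hb, the beta subunit of prolyl 4-hydroxylase (0.43 and 0.46). Lower in males were the procollagen proteinase enhancer gene Pcolce2 (-1.25 and -1.67), the procollagen N-proteinase Adamts2 (-0.95 and -0.86), the crosslinking oxidase Lox (-0.79 and -0.73) and the prolyl 3-hydroxylase gene P3h3 (-0.60 and -0.59). Of the 7 tested collagen receptors 1 was higher and 1 lower in KlKl males (14.3% each, against 15.1% and 13.9% of all tested genes). In control males 2 were higher and 2 lower (28.6% each, against 22.4% and 19.8%). Ddr1, a receptor kinase of epithelia, was higher (0.61 and 0.58) and Ddr2, its mesenchymal relative, lower (-0.64 and -0.77). Of 11 tested breakdown genes none was called in KlKl kidneys, and in controls Timp3 was higher and Mmp14, Ctsk and Mrc2 were lower in males. These are 9.09% higher and 27.3% lower, against 22.4% and 19.8% of all tested genes.

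For the KlKl effect none of these 5 lists had a called gene. The largest difference was that of Mmp12, macrophage elastase, at 1.65 in males and 1.64 in females (adjusted p = 0.679 and 0.97), with 0.449 over both sexes. Its levels were 2.16 to 17.5 in male KlKl and 0.557 to 1.79 in male control kidneys, and 2.24 to 10.5 in female KlKl and 0.194 to 2.46 in female control kidneys. Among the synthesis genes P3h4 differed by 0.44 and 0.52, among the interstitial partners Lum by 0.41 in males and Thbs2 by 0.40 in females, among the basement membrane partners Lama1 by -0.35 in males and 0.33 in females, and among the receptors Lair1 by 0.36 and -0.15.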

How the data were processed

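Poly(A) RNA of 16 kidneys was prepared with a directional library kit, per the labels' protocols. The deposited values are TPM, made by the authors with Partek on mm39, per the submitters' processing notes, with aligner and counter not given in the sources used here. Tested on the values, TPM was (reads + 0.0001) divided by the genomic span of the gene, introns included, and scaled to the same total of 309446 in every library. TPM times the span gave relative reads, of which 81.1% of the values under 20 were whole within 0.1. A row of values repeated for Kl was dropped, leaving 30277 of 30278 rows.

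Relative reads per 1000000 (RPM) were scaled by median ratios over 14413 nuclear protein-coding genes with reads in every library. limma 3.58.1 (R 4.3.3, trend) was fitted on log2(value + 0.5) to 15723 genes with a mean of at least 1 over the 16 libraries, with 4 groups and 12 residual degrees of freedom, with Benjamini-Hochberg adjustment at 0.05; fold changes on this scale understate those of low genes. All fold intervals are 95% intervals of that fit, and rest on the spread between 4 libraries per group; a floor of 3 reads for a count of 0 covers counting error only. The script was tested on simulated data. Levels between genes were divided by the union exon length of GENCODE M21 (GRCm38), since exon lengths of the build of the table were not used here, and promoter windows came from RefSeq (GRCm38.p6).

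The 44 genes were chosen by symbol, and the class, partner and marker lists, the tests and the rule for named genes were chosen with earlier results of these data known. Named are the kept genes of types I, III, IV, V, VI, XV and XVIII, others with an adjusted or unadjusted p under 0.05, the 2 with the largest difference per class and comparison, and up to 4 genes per list. Of 34 listed synthesis genes 33 were found, and the gene listed under the older symbol Ctage5 was found as Mia2. Age, name series and control genotype, other scalings, filters and tests, and leaving out each library were alternatives. The fit on log2(TPM + 1) used another filter, a TPM of at least 1 in at least 4 libraries. Its counts and medians therefore cover another set of genes than the 15723.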

Additional observations from a re-analysis of the deposited data

Results flagged for a closer look

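Of 124 groups of 4 libraries examined (each tested collagen gene in each group, and the class sums), 4 had a library whose gap to the nearest other exceeded Dixon's 95% critical value as a share of the range. Chance gives about 1 in 20 such groups. Col4a1 was 230.9 scaled RPM in male KlKl 2, against 154 to 158 in the other 3 male KlKl libraries. The summed level of the fibrillar genes was 216.0 in male control 4, against 193 to 195 in the other 3 male controls, and 483.1 in female control 4, against 364 to 371 in the other 3 female controls. Col6a1 was 2.183 in female control 3, against 15.4 to 22.1 in the other 3 female controls; female control 3 had the fewest reads and the largest ribosomal share.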

How the results depend on the processing

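No collagen gene was called for the KlKl effect or the interaction in any of 36 other settings, leaving out any library included. Genes called for the KlKl effect in males were 5, and 8 with log2(TPM + 1), 11 with log2(TPM + 0.1), 8 with a pseudocount of 2, 30 with library weights (whose estimation stopped short of its tolerance), 9 with the name series as covariate, 2 with heterozygous controls only, 1 with the libraries of the comparison only, 13 without female control 3 and male KlKl 3, and 20 in CFK and 0 in CFdk libraries alone. In females they were 3, and 1 with log2(TPM + 1), 1 with a filter at 5, 5 in CFK and 6 in CFdk libraries. Over both sexes they were 6, and 3 with log2(TPM + 1), 2 with the filter at 5, 10 with age as covariate, 3 with heterozygous controls, 13 without those libraries, 14 in CFK and 0 in CFdk. For the interaction they were 0, and 1 with weights, 3 without those libraries and 4 in CFK; the median of the other types was -0.30 in CFdk. Whether the replicate numbers pair the samples is not settled by their correlations. Same-numbered libraries correlated by -0.211 to 0.272 over 24 pairs, others by -0.252 to 0.249. Within a sex, same-numbered KlKl and control libraries correlated by 0.263, 0.0641, 0.272 and -0.155 in males. In females they correlated by 0.147, 0.143, -0.053 and 0.148. With the replicate block 3 genes were called for the KlKl effect in males; between the sexes Col3a1 gained a call in both comparisons and Col16a1 in controls, and Col4a4 lost its KlKl call.

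The deposited TPM moved the median of all genes by up to 0.34 between the sexes, and the class medians with it, some across 0. The log2(TPM + 1) fit had its own filter, and the collagen genes in it were Col1a1, Col1a2, Col3a1, Col4a1, Col4a3 and Col4a4 alone. Its counts and medians thus cover another set of genes than the main fit. In KlKl kidneys, males minus females, it gave 3 collagen genes called, without a count over all genes here. Its fibrillar median, over Col1a1, Col1a2 and Col3a1, was -0.091. There log2(TPM + 0.1) gave 7480 genes and medians of -0.15 (fibrillar), 0.62 (type IV) and 0.063 (other). In controls log2(TPM + 1), on that other set of genes, called 4236 genes and 4 collagen genes, with a median of -0.30 over the same fibrillar genes. In controls log2(TPM + 0.1) gave medians of -0.43, 0.51 and 0.005. In KlKl kidneys 7984 genes were called with weights, 6980 without those libraries, and 91 genes and 0 collagen genes in CFdk; in controls 3898 with heterozygous animals only, and 3350 genes, 6 collagen genes and a median of 0.057 for the other types in CFdk. The male KlKl type IV median was 0.10 with log2(TPM + 0.1), against -0.15. The cause of these shifts was not tested.

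Leaving out 1 library at a time gave 1 to 10 genes called for the KlKl effect in males, 2 to 7 in females, 4 to 11 over both and 0 to 2 for the interaction. Between the sexes it gave 3 to 7 collagen genes called in KlKl kidneys, beside 3125 to 6117 of all tested genes. In controls it gave 7 to 11 collagen genes, beside 5486 to 7110 of all tested genes. The female KlKl fibrillar median, 0.017, ran from -0.043 to 0.104. The calls of Col1a2 held without each library. Depth limits the 16 genes under the filter.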
